A study of Mus musculus with 9 samples.

Results

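Guanylate-binding proteins (GBPs) are large GTPases of the dynamin superfamily that are best known as products of interferon-induced genes. Interferon-γ and type I interferon act through their receptors, the JAK kinases and STAT factors, joined for type I interferon by IRF9. Both routes switch on Gbp genes through short promoter elements, the GAS element bound by STAT dimers and the interferon-stimulated response element (ISRE) bound by interferon regulatory factors. The proteins assemble on the membranes of vacuoles and bacteria, help to open them and feed the contents to inflammasomes, and several are anchored in membranes by a lipid added at a C-terminal CAAX motif. In the mouse the genes lie in a cluster on chromosome 3 and a cluster on chromosome 5.

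The genes described are Gbp2, Gbp3, Gbp5 and Gbp7 of the chromosome 3 cluster and Gbp4, Gbp6, Gbp8 and Gbp9 of the chromosome 5 cluster, 8 of the 50686 genes counted. They were chosen by name and found by their gene identifiers. On chromosome 3 (GRCm38), all on the plus strand, lie Gbp5 (ENSMUSG00000105504.4, chr3:142493978-142522344), Gbp7 (ENSMUSG00000040253.15, chr3:142530342-142550149), Gbp3 (ENSMUSG00000028268.14, chr3:142560026-142573209) and Gbp2 (ENSMUSG00000028270.12, chr3:142620602-142638008). On chromosome 5, all on the minus strand, lie Gbp8 (ENSMUSG00000034438.16, chr5:105014150-105139540), Gbp9 (ENSMUSG00000029298.15, chr5:105077630-105139539), Gbp4 (ENSMUSG00000079363.7, chr5:105115767-105139586) and Gbp6 (ENSMUSG00000104713.4, chr5:105270702-105293698). RNA was sequenced from bone marrow cells of C57BL/6N mice that had been transformed with the BCR/ABLp185 oncogene and grown out as immortal lines, so all groups carry BCR/ABLp185. The 3 groups were wild type (wt), Stat5a-/-, which lacks the transcription factor STAT5A, and Stat5b-/-, which lacks its close relative STAT5B. Each group is 1 cell line sequenced as 3 technical replicates, so every difference is between single lines and the p-values measure technical spread only. Library totals ran from 11948136 to 19016396 counted reads. Stat5a was lowest in Stat5a-/- at 12.4 ± 1.02 CPM (counts scaled to the effective library size; mean ± SD, n = 3) against 43.1 ± 6.35 in wt, and Stat5b was lowest in Stat5b-/- at 63.4 ± 7.72 against 105.5 ± 1.96 in wt, so reads of both targeted genes remained. All 10 B-lineage markers, among them Cd79a, Pax5 and Ebf1, had reads in every line, and their summed level lay between 4893 and 6697 CPM on average, but the recombinase genes Rag1 and Rag2 averaged 64.7 and 32.5 CPM in wt and at most 0.677 CPM in the knockout lines. The 10 myeloid markers summed to at most 21.3 CPM on average, with Cd14, Mpo and Elane at 0 in Stat5b-/- and Elane at 0 in Stat5a-/-. The 16 T-cell markers summed to 867 ± 150, 1200 ± 112 and 2099 ± 397 CPM in wt, Stat5a-/- and Stat5b-/-. None of the 16 T-cell markers was at 0 in any line.

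The 8 members share a GTP-binding site, and the bases around it show how far a read of 50 bases can tell them apart. The windows below were read from the GENCODE M21 coding transcripts (GRCm38), 5′ to 3′ on the coding strand, with the 8 codons of the nucleotide-binding P-loop in capitals. Each window lies within a single exon, exon 2 of the transcript, or exon 3 in Gbp3.
Gbp2: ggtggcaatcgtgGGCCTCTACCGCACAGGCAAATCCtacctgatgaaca
Gbp5: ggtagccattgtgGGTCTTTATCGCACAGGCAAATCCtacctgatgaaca
Gbp3: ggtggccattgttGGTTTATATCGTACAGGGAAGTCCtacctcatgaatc
Gbp7: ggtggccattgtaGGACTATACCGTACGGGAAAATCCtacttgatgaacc
Gbp4: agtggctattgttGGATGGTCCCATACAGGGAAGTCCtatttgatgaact
Gbp8: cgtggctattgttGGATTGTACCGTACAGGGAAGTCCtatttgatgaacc
Gbp9: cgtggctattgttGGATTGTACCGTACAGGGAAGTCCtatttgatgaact
Gbp6: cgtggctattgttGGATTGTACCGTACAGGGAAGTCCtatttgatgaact

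In this window the chromosome 5 members differed from each other at 0 to 5 of the 50 bases, and the chromosome 3 members at 6 to 13. Members of different clusters differed at 9 to 17 bases. Gbp6, at chr5:105290858-105290907 on the minus strand, and Gbp9, at chr5:105105685-105105734 on the minus strand, were identical over the window, and Gbp8, at chr5:105050885-105050934, differed from both at 1 base. Gbp2 and Gbp5, at chr3:142623813-142623862 and chr3:142500676-142500725 on the plus strand, were the closest of the chromosome 3 members with 6 differences. Reads that match several genes were not counted by the authors, so a read lying wholly within an identical stretch was lost. Over whole transcripts, 70.65% of the 50-base windows of Gbp6 also occur in transcripts of another gene, mainly the predicted gene Gm43302, and the counts of Gbp6 are uncertain for this reason. For the other members the share of such windows ran from 1.44% in Gbp5 to 18.12% in Gbp8. Gbp4, Gbp8 and Gbp9 also share 60 to 61 exon bases at a common start near chr5:105139540, and reads overlapping several genes were likewise not counted. Larger overlaps under the same rule were those of Gbp6 with Gm43302 (1726 bases, 29.0% of its gene model) and Gbp7 with Gm43802 (637 bases, 11.3%). The levels per kilobase given below are over whole gene models and do not correct for this.

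All 8 members had reads in all 9 libraries and passed the filter on low counts. Compared per kilobase of gene model, which runs from 2516 bases in Gbp2 to 7494 bases in Gbp4, Gbp7 had the highest mean in every line, with 13.2 ± 1.64, 38.9 ± 6.16 and 22.4 ± 2.63 CPM per kilobase (SD, n = 3) in wt, Stat5a-/- and Stat5b-/-. In both knockout lines its range overlapped with that of Gbp2. In wt, Gbp3 followed at 5.22 ± 0.534, then Gbp4, Gbp9 and Gbp2 between 2.86 and 3.22, which did not differ beyond their spread, and then Gbp5 and Gbp8 at 1.17 ± 0.244 and 1.08 ± 0.416, which did not differ either. In Stat5a-/- the order was led by 3 chromosome 3 members, with Gbp2 at 31.0 ± 3.65 and Gbp3 at 29.0 ± 2.82 next to Gbp7, while no other member was above 5.54 CPM per kilobase. In Stat5b-/- Gbp2 reached 20.9 ± 2.76, and Gbp3, Gbp9 and Gbp4 lay together between 9.25 and 10.9 CPM per kilobase. Gbp6 was lowest throughout, at 0.141, 0.275 and 0.432 CPM per kilobase in wt, Stat5a-/- and Stat5b-/-.

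**Figure D1:**
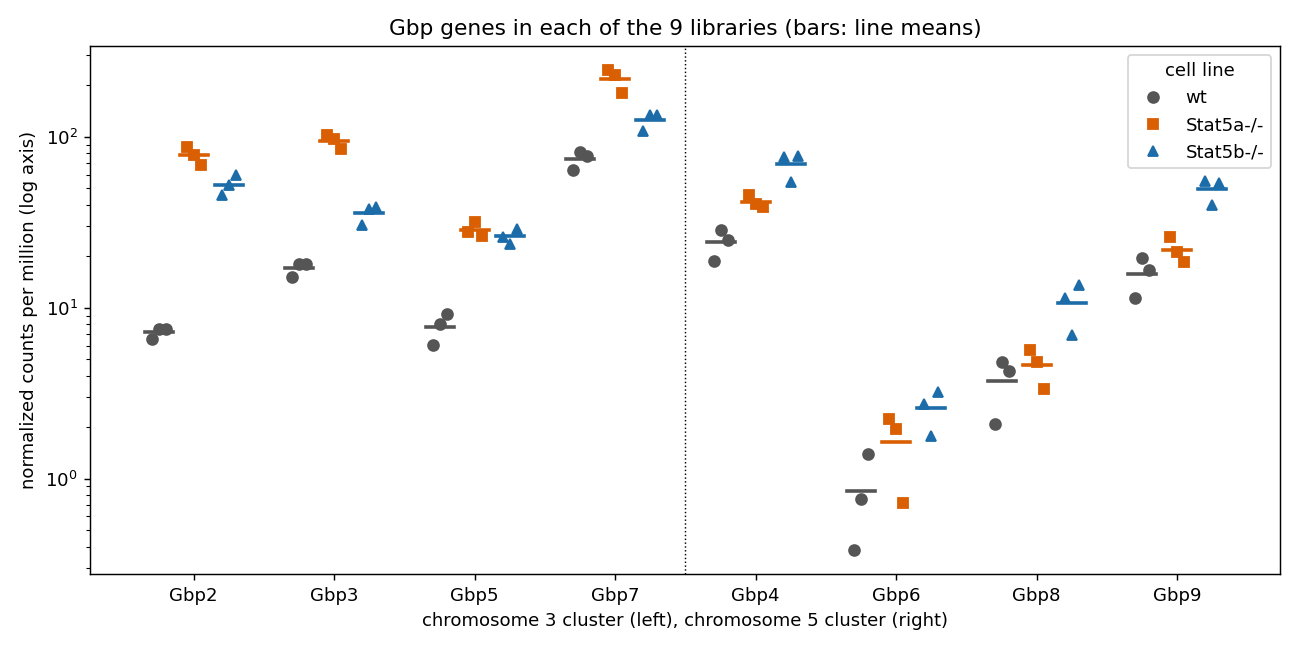
Normalized CPM (log axis) of each of the 8 Gbp genes in the 9 libraries, with chromosome 3 members on the left and chromosome 5 members on the right, points for libraries and bars for the mean of each line. Chromosome 3 members are highest or level with the highest in Stat5a-/-, and chromosome 5 members are highest in Stat5b-/-.

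The comparison of Stat5b-/- with wt asks which Gbp genes differ in the line without STAT5B. All 8 members were upregulated, 4 of 4 on chromosome 3 and 4 of 4 on chromosome 5. The largest rise was that of Gbp2, 7.28-fold, and the smallest that of Gbp7, 1.70-fold. On chromosome 5 the 4 rises were of like size, with log2 fold changes from 1.49 to 1.65. A gene was called at an adjusted p under 0.05 in the quasi-likelihood test of edgeR, adjusted over 13852 genes by the Benjamini-Hochberg method. By that rule 24.2% of all tested genes rose and 22.0% fell. With an absolute log2 fold change above 1 required as well, 7 of the 8 members passed, against 10.6% of all genes that rose and 8.44% that fell. The median log2 fold change was 1.55 over the members and 0.02 over all tested genes. The summed level of 16 T-cell markers was also higher in every Stat5b-/- library than in any wt library, and with their share as a covariate 1 of the 8 members, Gbp2, was still called, while the values of Gbp8 and Gbp6 turned to -0.93 and -0.99 and did not pass. In that fit 8.69% of all tested genes rose and 8.10% fell, and the SE of Gbp2 was 0.330 in place of 0.141.

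Gbp2, an interferon-γ-induced GTPase that coats vacuoles of intracellular parasites, had 6.60, 7.47 and 7.51 CPM in the wt libraries and 45.5, 52.6 and 59.4 CPM in the Stat5b-/- libraries. The lowest Stat5b-/- library was thus well above the highest wt library, and the log2 fold change was 2.86 (SE 0.141, adjusted p = 4.16e-09). Gbp5, known for promoting NLRP3 inflammasome assembly, had 6.03, 7.98 and 9.24 CPM in wt and 25.8, 23.7 and 28.9 CPM in Stat5b-/-. The groups did not overlap, and Gbp5 rose by 1.75 on the log2 scale (SE 0.158, adjusted p = 1.29e-06). Gbp3, which is recruited to pathogen vacuoles, had 15, 18.0 and 18.1 CPM in wt and 30.6, 37.7 and 38.8 CPM in Stat5b-/-. Every Stat5b-/- value was again above every wt value, with a log2 fold change of 1.06 (SE 0.130, adjusted p = 2.08e-05). Gbp7, linked to oxidative and autophagic host defence, had 63.6, 81.4 and 77.0 CPM in wt and 109, 134 and 134 CPM in Stat5b-/-. Its rise of 0.76 on the log2 scale (SE 0.140, adjusted p = 6.25e-04) was the only one below 1.

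On chromosome 5, Gbp4 had 18.8, 28.6 and 25 CPM in wt and 76.1, 54.6 and 77.3 CPM in Stat5b-/-, a log2 fold change of 1.52 (SE 0.167, adjusted p = 8.27e-06). Gbp9 had 11.4, 19.4 and 16.6 CPM in wt and 55.3, 40.0 and 54.0 CPM in Stat5b-/-, a log2 fold change of 1.65 (SE 0.194, adjusted p = 1.53e-05). In both genes Stat5b-/- replicate 2 was the lowest of its line. Gbp8 had 2.09, 4.80 and 4.27 CPM in wt and 11.4, 6.90 and 13.6 CPM in Stat5b-/-, a log2 fold change of 1.49 (SE 0.302, adjusted p = 0.00132). Gbp6 rested on few reads, 6, 15 and 24 in wt and 40, 26 and 42 in Stat5b-/-, and its log2 fold change was 1.58 (SE 0.430, adjusted p = 0.00881). Replicate 2 was the lowest Stat5b-/- library for all 4 chromosome 5 members but for only 1 chromosome 3 member, Gbp5.

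The comparison of Stat5a-/- with wt asks the same of the line without STAT5A. Here all 4 chromosome 3 members were upregulated, and of the chromosome 5 members Gbp4 passed, 1 of 4. The difference between the clusters was not tested. With no filter on low counts 7 of the 8 members were called, Gbp9 and Gbp6 among them, at nearly unchanged log2 fold changes but smaller SEs. The SE was 0.149 in place of 0.197 for Gbp9 and 0.333 in place of 0.464 for Gbp6. The share of all genes called in that fit is not at hand, so this count has no background beside it. The rises on chromosome 3 were large, 10.8-fold in Gbp2, 5.55-fold in Gbp3, 3.67-fold in Gbp5 and 2.95-fold in Gbp7. Over all tested genes 19.8% rose and 16.3% fell at an adjusted p under 0.05. With an absolute log2 fold change above 1 as well, 4 members passed, all on chromosome 3, against 7.75% of all genes that rose and 6.49% that fell. The median log2 fold change was 2.17 over the chromosome 3 members, 0.62 over the chromosome 5 members and 0.01 over all genes. Both comparisons with wt use the same 3 wt libraries.

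Gbp2 had 87.0, 78.4 and 68.6 CPM in the Stat5a-/- libraries, all above the wt range of 6.60 to 7.51 CPM, with a log2 fold change of 3.44 (SE 0.142, adjusted p = 9.28e-10). Gbp3 had 103, 96.6 and 84.8 CPM in Stat5a-/-, also far above wt, with a log2 fold change of 2.47 (SE 0.131, adjusted p = 9.07e-09). Gbp5 had 27.7, 31.6 and 26.2 CPM and rose by 1.87 on the log2 scale (SE 0.158, adjusted p = 7.79e-07). In Gbp7 the Stat5a-/- libraries held 246, 229 and 180 CPM, and the log2 fold change was 1.56 (SE 0.142, adjusted p = 1.57e-06). Replicate 3 was the lowest Stat5a-/- library for every member of both clusters.

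Of the chromosome 5 members, Gbp4 had 45.7, 40.3 and 38.7 CPM in Stat5a-/- and did not overlap with wt, with a log2 fold change of 0.78 (SE 0.168, adjusted p = 0.00243). Gbp9 had 25.8, 21.2 and 18.4 CPM, which overlapped with the 11.4 to 19.4 CPM of wt, and its log2 fold change of 0.46 did not pass (95% interval 0.03 to 0.89, adjusted p = 0.0874). Gbp8 had 5.66, 4.80 and 3.34 CPM, which overlapped with wt, with a log2 fold change of 0.30 (95% interval -0.40 to 1.01, adjusted p = 0.51). Gbp6 had 32, 24 and 8 reads in Stat5a-/- and a log2 fold change of 0.97 (95% interval -0.03 to 1.98, adjusted p = 0.123). The intervals of these 3 members reach up to rises of 0.89 to 1.98 on the log2 scale, so a rise was not detectable rather than absent. Gbp9 passed when wt replicate 2 was left out (0.64, adjusted p = 0.0343), and Gbp6 passed without wt replicate 3 (1.5, adjusted p = 0.0459) or without Stat5a-/- replicate 3 (1.27, adjusted p = 0.0329).

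**Figure D2:**
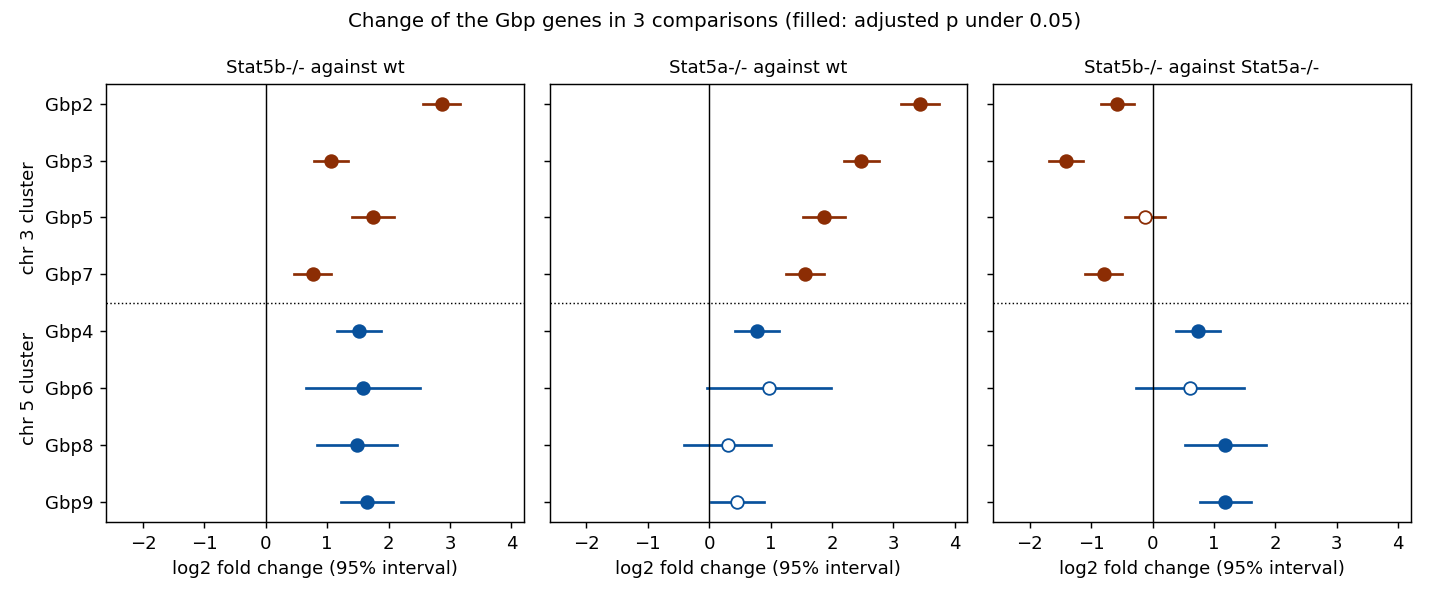
Log2 fold changes of the 8 Gbp genes with 95% intervals (x axis) in Stat5b-/- against wt, Stat5a-/- against wt and Stat5b-/- against Stat5a-/-, with chromosome 3 members above the dotted line and chromosome 5 members below it; filled points have an adjusted p under 0.05. In the direct comparison of the knockout lines, all chromosome 3 points lie below 0 and all chromosome 5 points above 0, with Gbp5 and Gbp6 not past the threshold.

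Set against each other, the knockout lines differed in opposite directions for 3 members of each cluster. The clusters as such were not compared by a test. Gbp2, Gbp3 and Gbp7 of chromosome 3 had lower levels in Stat5b-/- than in Stat5a-/-, while Gbp4, Gbp8 and Gbp9 of chromosome 5 were higher. The T-cell markers were also higher in this comparison, 15 of 16 by the same test, and with their share as a covariate 4 of these 6 calls were lost, while 4.70% of all genes were called higher and 6.40% lower in that fit. Gbp3 and Gbp7 were still called, Gbp2 (-0.81, adjusted p = 0.0708) and Gbp9 (0.13, adjusted p = 0.739) were not, and Gbp4 and Gbp8 turned to -0.17 and -0.62 without passing. Over all tested genes 16.4% had a higher and 17.5% a lower level in Stat5b-/- at an adjusted p under 0.05, and 4.81% and 6.60% with an absolute log2 fold change above 1. By the stricter rule 2 members were higher and 1 was lower. The median log2 fold change was -0.69 over chromosome 3 members and 0.96 over chromosome 5 members, against 0.02 over all genes.

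The largest drop was that of Gbp3, with a log2 fold change of -1.41 (SE 0.126, adjusted p = 2.23e-06). It was -0.80 in Gbp7 (SE 0.139, adjusted p = 6.89e-04) and -0.57 in Gbp2 (SE 0.124, adjusted p = 0.00339). The lines did not overlap in these 3 genes, which also held for genes not called in this comparison, such as Ifngr1 (adjusted p = 0.145). Gbp5 had 23.7 to 28.9 CPM in Stat5b-/- and 26.2 to 31.6 CPM in Stat5a-/-, and its log2 fold change of -0.13 (95% interval -0.44 to 0.19, adjusted p = 0.545) leaves room for a difference of up to that interval. The rises were 1.19 in Gbp8 (SE 0.306, adjusted p = 0.00958), 1.19 in Gbp9 (SE 0.193, adjusted p = 4.07e-04) and 0.74 in Gbp4 (SE 0.164, adjusted p = 0.00397). Gbp6 gave 0.61 (95% interval -0.27 to 1.49, adjusted p = 0.274).

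The share of the reads on the 8 members that came from chromosome 3 puts the same contrast on a single scale. It was 73.6%, 68.2% and 70.3% in the wt libraries, 85.4%, 86.5% and 85.5% in Stat5a-/-, and 59.1%, 70.6% and 63.8% in Stat5b-/-. The line means were 70.7% ± 2.74, 85.8% ± 0.596 and 64.5% ± 5.76 (SD, n = 3). Every Stat5a-/- library lay above the 6 others, while the Stat5b-/- range overlapped with that of wt. Each library's share rests on 1955 to 7771 reads, and the 95% Wilson interval, which covers counting error only, ran from 71.6% to 75.5% in the wt library with the fewest of them. In CPM, the chromosome 3 members summed to 106 ± 12.8, 420 ± 54.1 and 240 ± 26.4 in wt, Stat5a-/- and Stat5b-/-, and the chromosome 5 members to 44.5 ± 10.7, 69.6 ± 9.19 and 132 ± 25.1. Gbp7 alone held most reads of its cluster, and without it the chromosome 3 shares were 42.2%, 74.3% and 46.6%.

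**Figure D3:**
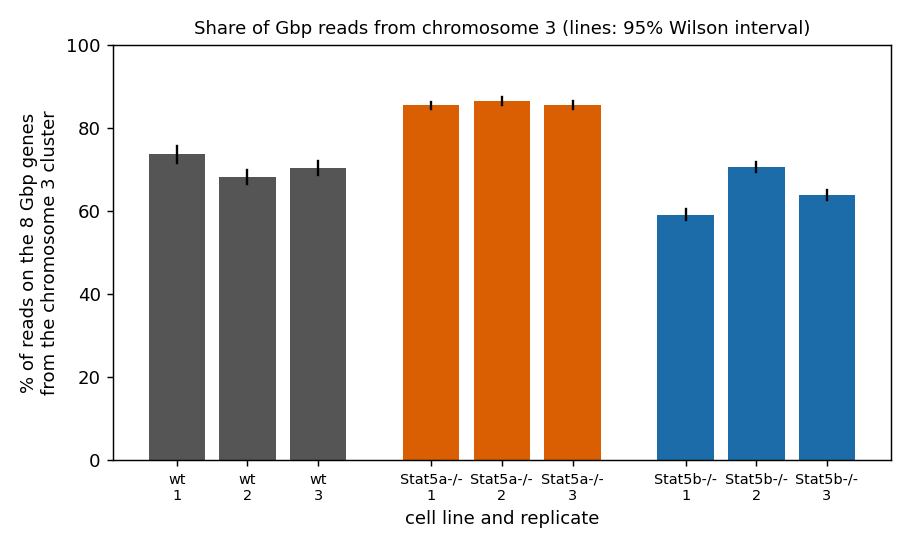
Share of the reads on the 8 Gbp genes that came from the chromosome 3 cluster (y axis, %), in each of the 9 libraries, with 95% Wilson intervals as lines. The Stat5a-/- libraries stand at 85.4% to 86.5%, above all wt and Stat5b-/- libraries.

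The summed level of the 16 T-cell markers (the CD3 chains, the T-cell receptor constant regions, Cd4, Cd8a, Lck, Zap70 and others) moved with the chromosome 5 members. It was 701, 991 and 909 CPM in the wt libraries, 1264, 1265 and 1071 CPM in Stat5a-/-, and 2396, 1649 and 2253 CPM in Stat5b-/-. As for the chromosome 5 members, Stat5b-/- replicate 2 was the lowest of its line and wt replicate 1 the lowest of all libraries. Of the 16 markers, 15 rose in Stat5b-/- against wt, 7 rose in Stat5a-/- against wt and in 15 the level in Stat5b-/- exceeded that in Stat5a-/-, beside 24.2%, 19.8% and 16.4% of all tested genes. Fewer cells of a type and less RNA per cell cannot be told apart in bulk libraries.

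Per 100 reads on the T-cell markers, the chromosome 5 members had 4.67 to 5.41 reads in wt, 5.40 to 6.28 in Stat5a-/- and 6.08 to 6.57 in Stat5b-/-. The chromosome 3 members had 11.6 to 13 reads in wt and 8.79 to 15 in Stat5b-/- but 33.6 to 36.7 in Stat5a-/-. Across the 9 libraries, the root-mean-square difference between the centred log2 level of a member and that of the T-cell sum was 0.15 for Gbp4, 0.208 for Gbp9, 0.285 for Gbp8 and 0.467 for Gbp6, and 0.596 to 1.21 for the chromosome 3 members. With the T-cell marker share as a covariate, 1 of 8 members was still called up in Stat5b-/- against wt, Gbp2 at 2.54 (SE 0.330, adjusted p = 4.29e-04). Gbp5 then stood at 1.01 (adjusted p = 0.0592), Gbp3 at 0.81 (adjusted p = 0.111) and Gbp7 at 0.37 (adjusted p = 0.502). The chromosome 5 members stood at 0.30 for Gbp4 (adjusted p = 0.418), 0.23 for Gbp9 (adjusted p = 0.611), -0.93 for Gbp8 (adjusted p = 0.147) and -0.99 for Gbp6 (adjusted p = 0.516). In Stat5a-/- against wt the same 5 members were called, beside 20.2% of all genes called up and 17.4% called down in that fit, with Gbp2 at 3.35, Gbp3 at 2.40, Gbp5 at 1.68, Gbp7 at 1.45 and Gbp4 at 0.47. Between the knockout lines the chromosome 5 calls were lost, Gbp2 stood at -0.81 (adjusted p = 0.0708), and Gbp3 and Gbp7 were still lower in Stat5b-/-, at -1.59 (adjusted p = 0.00215) and -1.08 (adjusted p = 0.0269). The T-cell marker levels of the 3 lines do not overlap with each other, so their part and that of the line cannot be told apart in any of the 3 comparisons, Stat5a-/- against wt included.

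**Figure D4:**
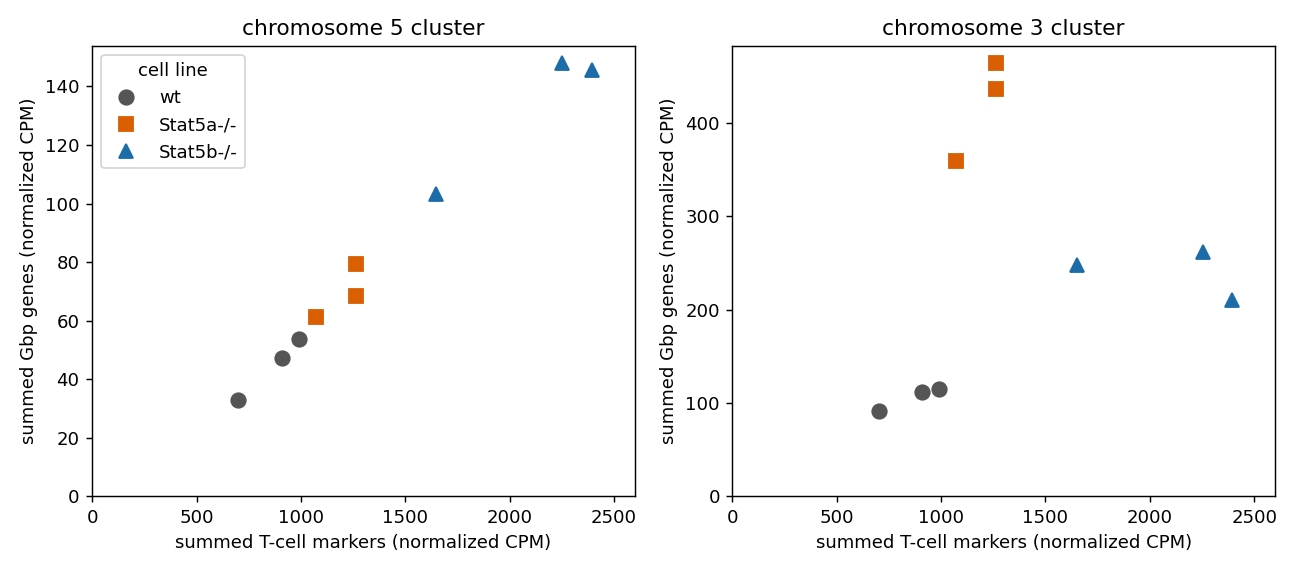
Summed normalized CPM of the chromosome 5 members (left) and the chromosome 3 members (right) against the summed normalized CPM of 16 T-cell markers, a point per library. The chromosome 5 sums rise with the T-cell sums through all 3 lines, whereas the Stat5a-/- libraries have 359 to 464 CPM of chromosome 3 members at T-cell sums of 1071 to 1265 CPM.

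The promoters of those members that had a promoter window at hand were searched for the elements named above. RefSeq windows (GRCm38.p6) were at hand for 4 of the 8 members, Gbp2, Gbp3, Gbp5 and Gbp7, and not for Gbp4, Gbp6, Gbp8 and Gbp9. The 250 bases before each RefSeq start were searched on both strands for the GAS letters TTCNNNGAA, which read the same on both strands, and for the ISRE core letters GAAANNGAAA. Matches are in capitals below, 5′ to 3′ on the plus strand, and the stretches of Gbp5 and Gbp2 are shortened so that at most 30 bases of annotated exon are shown.
Gbp2: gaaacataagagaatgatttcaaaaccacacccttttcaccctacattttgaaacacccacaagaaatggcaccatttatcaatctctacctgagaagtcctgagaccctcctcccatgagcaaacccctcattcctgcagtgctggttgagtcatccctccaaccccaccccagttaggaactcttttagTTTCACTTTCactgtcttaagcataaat
Gbp3: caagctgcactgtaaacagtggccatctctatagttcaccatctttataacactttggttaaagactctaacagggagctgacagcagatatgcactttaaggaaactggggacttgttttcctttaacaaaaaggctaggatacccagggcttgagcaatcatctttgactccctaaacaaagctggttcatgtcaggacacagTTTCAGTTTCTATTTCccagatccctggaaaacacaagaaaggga
Gbp5: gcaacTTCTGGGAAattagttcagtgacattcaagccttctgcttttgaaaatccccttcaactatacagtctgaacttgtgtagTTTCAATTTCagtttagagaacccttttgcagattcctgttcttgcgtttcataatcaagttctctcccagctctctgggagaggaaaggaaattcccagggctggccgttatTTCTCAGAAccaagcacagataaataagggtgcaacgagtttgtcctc
Gbp7: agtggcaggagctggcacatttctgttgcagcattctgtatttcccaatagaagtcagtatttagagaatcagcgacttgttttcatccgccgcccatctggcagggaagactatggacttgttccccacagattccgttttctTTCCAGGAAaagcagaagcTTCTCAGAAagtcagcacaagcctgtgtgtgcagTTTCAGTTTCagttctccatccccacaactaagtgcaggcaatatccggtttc

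The stretches are chr3:142620413-142620631 for Gbp2, chr3:142559794-142560043 for Gbp3, chr3:142496684-142496929 for Gbp5 and chr3:142530086-142530335 for Gbp7. Each of the 4 held the ISRE core, in all cases on the minus strand, whereas 2.98% of 32851 promoter windows of this length held it. In Gbp2 it lay at positions -59 to -50 from the start, in Gbp7 at -53 to -44 and in Gbp5 at -165 to -156. The Gbp2 match, chr3:142620604-142620613, lies within the GENCODE gene model, which starts at base 142620602, upstream of the RefSeq start. The Gbp5 gene model starts at base 142493978, so the whole Gbp5 stretch lies within its span. The Gbp5 positions therefore hold for the RefSeq start only. Gbp3 held a pair of overlapping cores, at chr3:142559999-142560008 and chr3:142560005-142560014, and a second RefSeq window of Gbp3 further downstream held none of either motif. GAS letters occurred in Gbp5 and Gbp7, in 2 copies each, and in 7.02% of all windows. They began at positions -106 and -87 in Gbp7 and at -245 and -52 in Gbp5. GAS and ISRE letters together occurred in 0.332% of all windows. Gbp2 and Gbp3 held no GAS letters in these windows. A match describes letters and not a bound site.

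The genes that lead from interferon to the Gbp promoters were described from a list of 20. In Stat5b-/- against wt, 12 of the 18 tested were upregulated and 2 downregulated, with a median log2 fold change of 0.66, beside 24.2% and 22.0% of all tested genes. With the T-cell marker share as a covariate 5 were upregulated and 0 downregulated, beside 8.69% and 8.10% of all genes. In Stat5a-/- against wt 7 rose and 3 fell, with a median of 0.31, beside 19.8% and 16.3% of all genes. Stat5b-/- exceeded Stat5a-/- in 9 and fell below it in 4, beside 16.4% and 17.5% of all genes, and with the covariate in 6 and 1, beside 4.70% and 6.40%. Of the ligands only Ifng and Ifnb1 were listed, and Ifng averaged at most 0.0505 CPM in a line and Ifnb1 was at 0 in all libraries. The receptor chain Ifngr1 rose in both lines, by 0.66 and 0.48 on the log2 scale in Stat5b-/- and Stat5a-/- (adjusted p = 6.83e-05 and 0.00115), whereas its partner Ifngr2 had log2 fold changes of -0.26 and -0.46 (adjusted p = 0.0381 and 0.00175).

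Irf9, a DNA-binding factor of the type I interferon response, showed 1.38 in Stat5b-/- (adjusted p = 3.25e-07) and 0.24 in Stat5a-/- (adjusted p = 0.104). Irf1, which binds ISRE-like elements, rose in both lines, by 1.61 in Stat5b-/- and 0.99 in Stat5a-/- (adjusted p = 2.20e-08 and 2.88e-06). The inhibitor Socs1 followed the order of the chromosome 3 members, with 15.7 ± 3.47 CPM in wt, 55.5 ± 13.7 in Stat5a-/- and 26.5 ± 4.95 in Stat5b-/-, and was lower in Stat5b-/- than in Stat5a-/- (-1.07, SE 0.198, adjusted p = 0.00114), a call lost with the T-cell marker share as a covariate (-0.41, adjusted p = 0.559). Usp18, a brake on the type I interferon receptor (2.35), and Nlrc5, an activator of MHC class I genes (2.19), rose most in Stat5b-/-. The falls were those of Tyk2 (-0.44), a receptor kinase, and Ifngr2. The 5 genes still called up in Stat5b-/- against wt with that covariate were Irf1 (1.71, adjusted p = 4.21e-04), Irf9 (1.09, adjusted p = 0.013), Socs1 (1.66, adjusted p = 0.0427), Usp18 (1.75) and Nlrc5 (2.55).

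**Figure D5:**
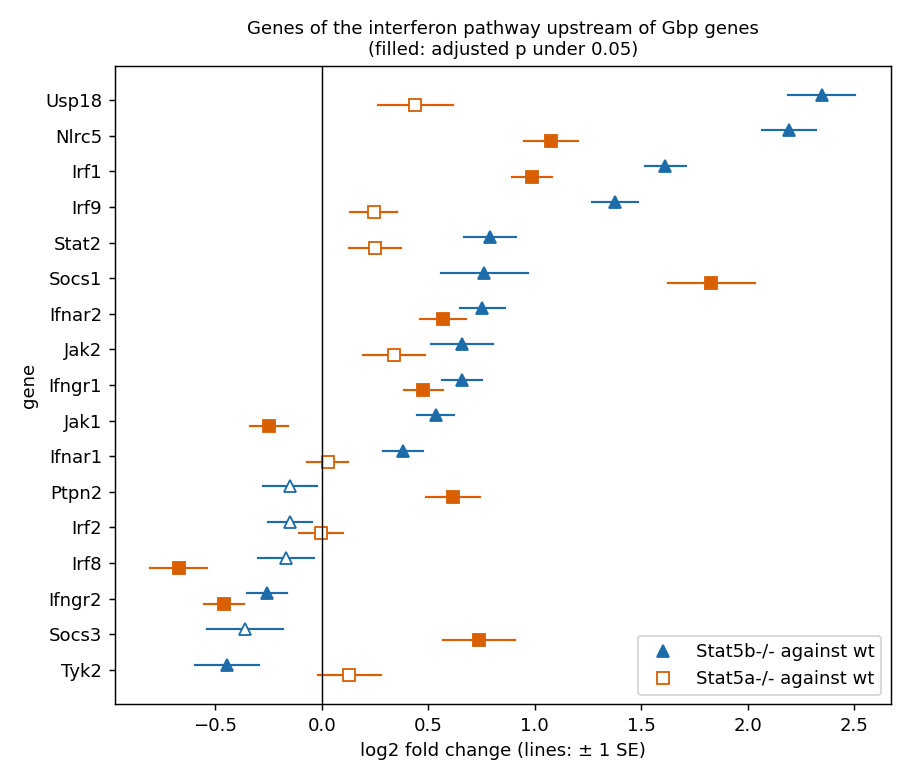
Log2 fold changes (x axis, lines ± 1 SE) of tested genes of the interferon pathway in Stat5b-/- against wt (triangles) and Stat5a-/- against wt (squares), with filled symbols for an adjusted p under 0.05. Among the genes drawn, Usp18, Nlrc5, Irf1 and Irf9 show the largest Stat5b-/- values, and Socs1 is the gene with the largest Stat5a-/- value.

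Of 27 partners that act with GBPs at vacuoles and inflammasomes, 12 rose and 6 fell in Stat5b-/-, 9 rose and 5 fell in Stat5a-/-, and in the direct comparison of the knockout lines 10 were higher and 3 lower in Stat5b-/-, beside 16.4% and 17.5% of all genes, and 2 and 1 with the T-cell marker share as a covariate, beside 4.70% and 6.40%. Among all genes 22.0% fell in Stat5b-/- and 16.3% in Stat5a-/-, so the falls of partners against wt were near the background, while 24.2% and 19.8% of all genes rose. Rising most in Stat5b-/- were the immunity-related GTPases Iigp1 (3.57, SE 0.404) and Gm12250 (2.79, SE 0.133), which also rose in Stat5a-/- (1.92 and 1.92). With the T-cell marker share as a covariate the Stat5b-/- values were 2.97 (adjusted p = 0.0631) and 2.67 (adjusted p = 1.73e-04), and 2 partners rose in all, beside 8.69% of all genes. In Stat5b-/- the largest falls were those of the DNA sensor Aim2 (-1.49) and the autophagy gene Gabarapl1 (-1.38), which also fell in Stat5a-/- (-0.82 and -1.51). Larger falls in Stat5a-/-, named after their values were seen, were those of the autophagy gene Map1lc3a (-3.52, on 8 reads in each library) and the inflammasome sensor Nlrp3 (-2.75, on 1 to 4 reads), whose log2 fold changes in Stat5b-/- were -1.07 and 1.23. Of the 6 genes that add and process the CAAX lipid anchor, 1 was called in Stat5b-/-, the carboxyl methyltransferase Icmt (0.37, adjusted p = 0.0453), and in Stat5a-/- 1 rose and 1 fell. Counts over so few genes are not set apart from the shares of all genes given above. Of 9 tested dynamin-superfamily GTPases, 3 rose in Stat5b-/-, beside 24.2% of all genes, led by the antiviral genes Mx2 (2.58, SE 0.700, on 1 to 4 reads in wt) and Mx1 (2.02, SE 0.322), with the membrane GTPase Atl3 at 0.37. In Stat5a-/- Atl3 rose and Mfn1 fell, and Mx1 and Mx2 did not pass (adjusted p = 0.285 and 0.29).

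Genes that lie beside the clusters were compared in the same way. Of the 4 other tested genes within 500 kb of the chromosome 3 members, none rose in either knockout line against wt, 1 fell in Stat5b-/- and 2 fell in Stat5a-/-. Between the knockout lines 0 were higher and 1 was lower in Stat5b-/-, Kyat3 (-1.07, adjusted p = 3.91e-05), the direction of Gbp2, Gbp3 and Gbp7. Kyat3, a kynurenine aminotransferase, and Pkn2, a protein kinase, had the largest absolute log2 fold changes. These were -1.46 (adjusted p = 1.18e-06) and -0.17 (adjusted p = 0.254, not called) in Stat5b-/- and -0.38 and -0.35 in Stat5a-/-. Both Stat5a-/- calls were lost with the replicate block. Of the 9 tested neighbours of the chromosome 5 members, 4 rose in each knockout line, 1 fell in Stat5b-/- and 2 fell in Stat5a-/-, and in 4 the Stat5b-/- level exceeded that of Stat5a-/-, beside 16.4% of all genes, and in 0 with the T-cell marker share as a covariate, beside 4.70%. Among all genes 24.2% rose and 22.0% fell in Stat5b-/- and 19.8% rose and 16.3% fell in Stat5a-/-, and counts over so few neighbours are not set apart from these shares. The zinc-finger gene Zfp951 rose by 3.55 in Stat5b-/- (8 to 22 reads in wt), and Gm32051 had a log2 fold change of -2.21 on 3 to 6 reads in Stat5b-/-. The median log2 fold change of all tested genes on chromosomes 3 and 5 lay between -0.10 and 0.08 in the 3 comparisons.

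Likeness over the 9 libraries was closer among the chromosome 5 members than among those of chromosome 3. The root-mean-square difference of centred log2 CPM was 0.199 between Gbp8 and Gbp9, 0.207 between Gbp4 and Gbp9, and at most 0.454 between any chromosome 5 members. Between chromosome 3 members it ran from 0.383 for Gbp3 and Gbp7 to 0.933 for Gbp2 and Gbp7, and between clusters from 0.489 for Gbp4 and Gbp5 to 1.3 for Gbp2 and Gbp8. Gbp5 was thus nearer to Gbp4 than to Gbp3 (0.545) or Gbp2 (0.661) of its own cluster, and Gbp7 was nearer to each chromosome 5 member (0.653 to 0.875) than to Gbp2. None of these was close to Gbp7, with the chromosome 5 members at ranks 4296 to 10777 and Gbp2 at rank 11490 among all tested genes. The measure counts the size of a change as well as the order of the lines. The nearest genes of all were Bex3, Slfn2 and Cyp2d22 for Gbp2 (0.191 to 0.306), 4930570N18Rik, Atp1b1 and Gstt2 for Gbp3 (0.155 to 0.184), Slc25a53, Xaf1 and Cnrip1 for Gbp5 (0.110 to 0.131), and Xbp1, Ostf1 and Smim3 for Gbp7 (0.142 to 0.147). For Gbp4 they were Tnfsf10, Prkcq and Igtp (0.0896 to 0.104), for Gbp9 Rnf213, Trp53inp1 and Trim30d (0.0888 to 0.123), for Gbp8 Gm47015, Ms4a6b and Rtp4 (0.138 to 0.142), and for Gbp6 Trbd2, Tlr7 and Sytl2 (0.299 to 0.322). These libraries are 3 lines of technical replicates, so the likeness is over 3 lines and carries no test.

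The files hold 4 other Gbp genes, which had too few reads to be tested. Gbp2b, the mouse gene long called Gbp1 and a neighbour of Gbp2, had 2, 2 and 3 reads in wt, 8, 13 and 9 in Stat5a-/- and 0, 1 and 2 in Stat5b-/-, so it was highest in Stat5a-/- with no overlap. Gbp10 had 0 to 5 reads in wt, 1 to 4 in Stat5a-/- and 3 to 12 in Stat5b-/-, and 84.07% of its 50-base windows occur in transcripts of another gene. Gbp11 had 0 to 7, 0 to 3 and 3 to 8 reads, and the ranges of the lines overlapped in both genes. The pseudogene Gbp2-ps had 0 reads in all libraries.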

How the data were processed

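The authors trimmed single-end reads of 50 bases with Trimmomatic, mapped them with STAR to GRCm38 with GENCODE M13, and deposited raw counts per gene from featureCounts 1.5.1 (exons, no strand, no multi-mapping reads), without normalization, per the file headers and the study's methods. Lines were grouped by the labels, although the deposited description of the knockout libraries speaks of wt. Symbols came from GENCODE M21, which named 50376 of 50686 genes. Counts of all 9 libraries were fitted with edgeR 4.0.16 (R 4.3.3; TMM, filterByExpr, quasi-likelihood, genotype), each line being 1 cell line with 3 technical replicates, and tested on simulated data. Normalized CPM are TMM-scaled. Library totals were 11948136 to 19016396, so members with few reads, such as Gbp6, are imprecise. Alternatives were DESeq2 1.42.0, RLE, other filters, 2-genotype fits, left-out libraries, a replicate block, stricter limits and the T-cell marker share as covariate, with a GC offset chosen after seeing the data. Genes named are the 8 members, fixed pathway genes, the 2 largest rises and falls called per list in Stat5b-/- against wt, the 2 most changed neighbours per cluster and the 3 most alike genes per member. The values of 1 gene of the interferon list are not reported here. The members and lists were chosen with earlier results of these data known.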

Additional observations from a re-analysis of the deposited data

Results flagged for a closer look

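For 6 members the knockout lines differed from each other in the direct test. The log2 fold change in Stat5b-/- against Stat5a-/- was -0.57 for Gbp2, -1.41 for Gbp3 and -0.80 for Gbp7, all on chromosome 3. It was 0.74 for Gbp4, 1.19 for Gbp8 and 1.19 for Gbp9, all on chromosome 5. With the T-cell marker share as a covariate 2 of the 6 calls were kept, those of Gbp3 and Gbp7, and Gbp4 (-0.17) and Gbp8 (-0.62) changed sign without passing. The cause was not tested.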

How the results depend on the processing

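Over 18 alternative fits, 411 of 432 member values kept their direction and side of the threshold, 8 gained the call and the others lost it or reversed. With the T-cell marker share as covariate, the only setting with losses or reversals, 11 of 19 calls were lost, 7 in Stat5b-/- against wt and 4 between the knockout lines, and 6 values reversed, 4 of them among the lost calls. There 1 member was called up in Stat5b-/- against wt and 0 members exceeded their Stat5a-/- level in Stat5b-/-. The reversed log2 fold changes, none called with the covariate, were -0.93 for Gbp8 and -0.99 for Gbp6 in Stat5b-/- against wt, -0.31 for Gbp8 in Stat5a-/- against wt, and -0.62 for Gbp8, -0.17 for Gbp4 and -1.30 for Gbp6 between the knockout lines. With this covariate 5 interferon pathway genes rose and 0 fell in Stat5b-/- and 1 was lower than in Stat5a-/-, and 2 partners rose and 3 fell in Stat5b-/-, with 2 higher and 1 lower than in Stat5a-/-. Of the chromosome 5 neighbours 2 fell in Stat5b-/-, and 0 were higher and 1 lower than in Stat5a-/-. The list and neighbour alternatives and the GC offset were chosen after seeing the data.

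Requiring an absolute log2 fold change above 1 left 1 member lower in Stat5b-/- than in Stat5a-/-. DESeq2 gave the same member counts and 1 chromosome 5 neighbour down in Stat5a-/-. The gained calls were Gbp9 (0.44 with no filter, 0.60 with a GC offset) and Gbp6 (0.96 and 1.11) in Stat5a-/- against wt, beside those from left-out libraries and the GC offset with replicate block (Gbp9, 0.59). The mean chromosome 3 share in wt, Stat5a-/- and Stat5b-/- was 42.2%, 74.3% and 46.6% without Gbp7 and 75.2%, 90.1% and 72.2% per kilobase. Leaving out a library gave 8 members up in Stat5b-/-, 5 to 6 up in Stat5a-/-, 3 higher and 3 lower between them, 0 down against wt, and shares of 69.2% to 72.0%, 85.4% to 86.0% and 61.5% to 67.2%.

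With the replicate block the members up against wt numbered 8 for Stat5b-/- and 5 for Stat5a-/-, with 3 higher and 3 lower between these lines. The block left 1 interferon pathway gene down in Stat5b-/-, and 0 chromosome 3 and 1 chromosome 5 neighbour down in Stat5a-/-. Deviations of libraries with the same number had r from -0.445 to 0.216 (mean -0.0877 over 9 pairs), which gave no ground for pairing them. The mean over the 18 other pairs was 0.0438. It is no separate comparison, since centring within each line ties it to the mean of the same-number pairs. Depth limits Gbp6, with 6 to 42 reads a library.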
